A study of Homo sapiens with 4 samples.

Results

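MOLM-13 is a human acute myeloid leukaemia line of monocytic type that carries a KMT2A (MLL) gene fusion. The comparison described here asks what a hairpin against c-Myc changed in MOLM-13 cells whose Bcl-2 mRNA was already knocked down: the library with both hairpins (sh-c-Myc and sh-Bcl2, the double knockdown) was set against the library with the Bcl-2 hairpin (sh-Bcl2). The genes described are all those with at least 1 CPM (library-scaled counts per 1000000 counts) in either of these libraries, which were 12972 of the 24940 genes listed. The study holds 4 RNA-seq libraries, 1 for each group: a negative control hairpin (shControl), Bcl-2 knockdown (sh-Bcl2), c-Myc knockdown (sh-c-Myc) and the double knockdown. Every group was infected with lentivirus, selected with puromycin or G418 and induced with doxycycline, the controls included. The sources used here do not give the hairpin sequences, whether the lines were clones or pools, or whether cells with a single hairpin also carried a second, control hairpin. The c-Myc hairpin was also compared with the control hairpin in cells with intact Bcl-2, and that ratio stands beside the first wherever the question is whether a gene moved alike in both backgrounds.

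MYC encodes a basic helix-loop-helix transcription factor that pairs with MAX and binds E-box sequences, of which CACGTG is the canonical form. It drives genes for ribosome assembly, translation, nucleotide synthesis, mitochondrial biogenesis and the cell cycle, and in myeloid cells its fall accompanies terminal differentiation. BCL2 encodes an anti-apoptotic protein of the outer mitochondrial membrane, and is the target of the drug venetoclax.

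There was 1 library per group, so the spread between cultures could not be measured and no test between groups was possible. Intervals are exact 95% binomial intervals on the counts of both libraries and cover counting error only. A call here means a level that differed at least 2-fold with an interval that excluded equal levels. The libraries held 14421558 to 15691129 counts, and 3 counts, the limit that a count of 0 allows, correspond to 0.198 CPM in the Bcl-2 knockdown and 0.192 CPM in the double knockdown. Levels are given below in CPM and in the order control hairpin, Bcl-2 hairpin, c-Myc hairpin, both hairpins. Of the 11 markers listed for an acute myeloid leukaemia line, 10 were measured: CD33 was at 42.3 CPM with the Bcl-2 hairpin and 52.2 with both, and ANPEP, which encodes CD13, was at 0 in both. No fibroblast or epithelial marker reached 1 CPM in these libraries, and EPOR was the single erythroid marker that did, at 22.5 and 25.4 CPM. Of the T-cell markers TRAC alone was measured and of the B-cell markers CD79A and BLNK, none above 18.6 CPM, while CD28 and CD5 were below 1 CPM. NK-cell markers were present, because NCAM1, an adhesion molecule found on some myeloid leukaemias, was at 248, 226, 203 and 242 CPM and NKG7 at 67.8, 67.2, 58.4 and 52.9 CPM, and neither differed 2-fold. BLNK, called higher at 1.06, 0.330, 0.898 and 2.30 CPM, and TRAC, called lower, were the 2 calls among the markers of other lineages.

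The targeted genes were read first, since they check the labels. MYC was at 434, 364, 278 and 302 CPM. It was highest with the control hairpin, already lower with the Bcl-2 hairpin alone (364 against 434 CPM) and lowest with the c-Myc hairpin alone. With both hairpins MYC mRNA was 1.21-fold lower than with the Bcl-2 hairpin (95% interval 1.16 to 1.26, log2 ratio -0.27), against a log2 ratio of -0.64 for the same hairpin in the control background. BCL2 was at 119.7, 38.7, 112 and 44.5 CPM, low in both libraries with the Bcl-2 hairpin. The double knockdown held 1.15 times the BCL2 mRNA of the Bcl-2 knockdown (1.03 to 1.29), so BCL2 mRNA remained at a knocked-down level. By the 2-fold rule neither targeted gene was called in this comparison.

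With both hairpins, 655 genes were called higher (5.05% of the genes measured) and 476 lower (3.67%), in all 1131 (8.72%). The median log2 ratio over all measured genes was -0.01. A 4-fold difference was reached by 115 of the genes called higher and 62 of those called lower. Most called genes were at low levels: the higher of both libraries held a median of 3.45 CPM for genes called higher and 6.94 CPM for those called lower, against 31.2 CPM over all measured genes. Of the 1898 genes whose higher library held 1 to 3 CPM, 15.6% were called higher and 8.69% lower. The shares fell to 1.24% and 1.89% among the 3961 genes at 30 to 100 CPM, and above 300 CPM they were 2.09% and 1.61% of 622 genes. Genes called higher thus outnumbered genes called lower below 30 CPM, and genes called lower outnumbered them from 30 to 300 CPM. A gene below 1 CPM in 1 of the compared libraries was measured only through the library where it was higher. This rule can add calls at low levels, also within the gene lists below. With at least 5 CPM, 261 genes were called higher and 267 lower, and a 1.5-fold limit gave 1401 and 1425.

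**Figure D1:**
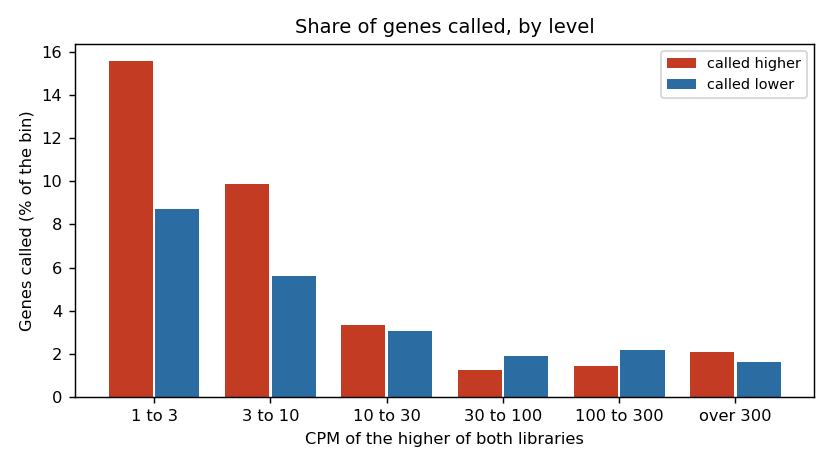
Share of measured genes called higher or lower in the double knockdown against Bcl-2 knockdown, in percent, by the level of the gene in its higher library (CPM). The bars for genes at 1 to 3 CPM stand at 15.6% higher and 8.69% lower, and those from 30 CPM upward stay at or below 2.16%.

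Protein-coding genes made up 11154 of the genes measured, and 7.31% of them were called, 441 higher and 374 lower. Long non-coding transcripts were called more often: 21.6% of 421 lincRNAs (63 higher, 28 lower) and 18.9% of 539 antisense genes (70 higher, 32 lower). The share of all counts in lincRNA genes was 0.303% with the Bcl-2 hairpin and 0.401% with both. These classes hold many low-count genes, and whether level accounts for their share of calls was not tested.

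**Figure D2:**
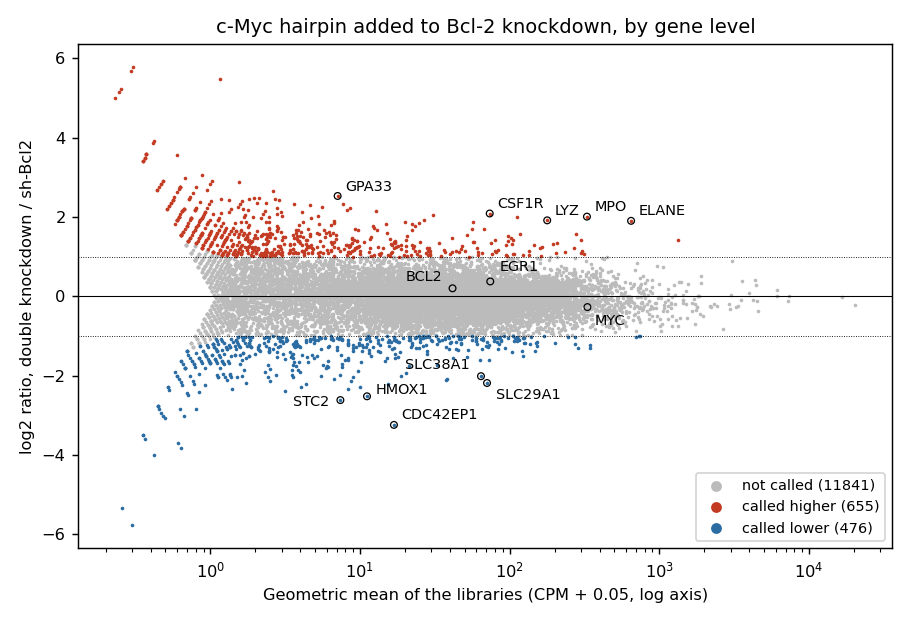
Log2 ratio of the double knockdown to Bcl-2 knockdown for each measured gene against the mean level of both libraries (CPM, log axis), with called genes in colour, the 2-fold limits dotted and selected genes named. Of the named genes CDC42EP1 and STC2 lie lowest and GPA33, CSF1R and MPO highest, and MYC lies just below 0.

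Among genes with at least 10 CPM, the lowest in the double knockdown relative to Bcl-2 knockdown was CDC42EP1 (chr22:37560447-37569405 in GRCh38, as in GENCODE 29), an effector of the small GTPase CDC42. Its levels were 92.9, 51.8, 7.18 and 5.44 CPM. Both libraries with the c-Myc hairpin were low, and the level was 9.48-fold lower than with the Bcl-2 hairpin alone (7.61 to 12.1). STC2, which encodes the secreted glycoprotein stanniocalcin 2, followed at 35.1, 18.2, 10.3 and 2.94 CPM, 6.14-fold lower (4.52 to 8.66), with the lowest level in the double knockdown. HMOX1, the inducible haem oxygenase, was at 11.1, 26.6, 6.99 and 4.61 CPM, highest with the Bcl-2 hairpin alone. It was 5.75-fold lower with both hairpins (4.49 to 7.54), and in the control background the c-Myc hairpin gave a log2 ratio of -0.67. DDN, NCS1 and NKD2, a Wnt pathway regulator that binds Dishevelled, were 4.66 to 5.09-fold lower. PHKA1, a regulatory subunit of phosphorylase kinase, was 4.08-fold lower, HPDL 4.39-fold, ART3 4.26-fold, RGS16, which speeds GTP hydrolysis by G-protein alpha subunits, 4.02-fold and KANK1 3.82-fold. All of these were also lower with the c-Myc hairpin in the control background. Leaving HMOX1 aside, the log2 ratios there were -1.60 (KANK1) to -3.78 (DDN).

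Membrane transporters stood among the 15 genes called lower that were named by size. SLC29A1, the equilibrative nucleoside transporter ENT1 that also carries cytarabine into cells, was at 175, 151, 12.1 and 33.1 CPM. It was 4.55-fold lower (4.14 to 5.02) with both hairpins than with the Bcl-2 hairpin, and lower still with the c-Myc hairpin alone. SLC7A2, a carrier of cationic amino acids, was at 92.6, 77.8, 16.03 and 17.8 CPM and 4.35-fold lower (3.82 to 4.98). SLC38A5, a glutamine and serine transporter, was at 79.6, 79.3, 12.8 and 18.5 CPM and 4.28-fold lower (3.77 to 4.89). For both amino acid carriers the libraries with the c-Myc hairpin were low and those without it high, whichever other hairpin the cells had. SLC38A1, another sodium-coupled glutamine transporter, was at 177, 129, 59.0 and 32.0 CPM, 4.04-fold lower (3.67 to 4.47) and lowest in the double knockdown. Of 13 genes for nucleoside uptake and analogue metabolism, 12 were measured. SLC29A1 and RRM2 were called lower (3.67% of all genes were). SLC28A3, a concentrative nucleoside transporter, and SAMHD1, a dNTP hydrolase, were called higher (5.05% of all genes were).

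The promoters of called genes are shown because MYC, the factor the hairpin targets, binds a short fixed sequence that can be looked for. RefSeq promoters (GRCh38.p14, 250 bases before to 50 after the start) were matched by Ensembl identifier, or else by symbol, for 9287 of the measured genes. On either strand CACGTG, which reads the same on both, occurred in 46 of 288 promoters of genes called lower (15.97%), in 26 of 354 of genes called higher (7.34%), in 961 of the 9287 (10.3%) and in 2030 of all 27305 promoters (7.43%). Over protein-coding genes alone the shares were 16.4%, 6.75% and 10.4%. A core of the sites bound by the myeloid factor PU.1, GAGGAAGT, was searched on both strands in the same way and occurred in 8 (2.78%), 14 (3.95%) and 250 (2.69%) promoters, and in 694 of all promoters (2.54%). The 2 motifs can share at most 1 base where they meet. A match is a string of letters in a window and not a measured binding site. By list, the E-box occurred in 20 of 48 ribosome biogenesis promoters (41.7%) and in 8 of 22 lysosome promoters (36.4%), lists whose medians lie on opposite sides of 0, and in none of 18 monocyte and macrophage promoters or 7 granule gene promoters. The 4 promoters below are those of the 3 genes called lower and the 1 gene called higher with the largest fold at the end of the interval nearest to 1, among named genes with a match before the start. Each is the 250 bases before the start, 5′ to 3′ on the gene's strand, with CACGTG in capitals.
SLC29A1, chr6:44219365-44219614, plus strand: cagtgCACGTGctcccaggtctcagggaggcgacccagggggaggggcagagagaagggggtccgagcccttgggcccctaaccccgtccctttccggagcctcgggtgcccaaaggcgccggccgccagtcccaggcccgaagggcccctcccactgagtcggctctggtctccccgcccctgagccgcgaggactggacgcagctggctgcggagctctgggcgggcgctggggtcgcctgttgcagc
SLC38A5, chrX:48470261-48470510, minus strand: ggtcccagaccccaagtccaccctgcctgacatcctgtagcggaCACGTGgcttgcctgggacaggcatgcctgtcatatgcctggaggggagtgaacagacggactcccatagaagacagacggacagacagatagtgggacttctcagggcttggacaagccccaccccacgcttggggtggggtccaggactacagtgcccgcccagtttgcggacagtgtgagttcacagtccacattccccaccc
SRM, chr1:11060019-11060268, minus strand: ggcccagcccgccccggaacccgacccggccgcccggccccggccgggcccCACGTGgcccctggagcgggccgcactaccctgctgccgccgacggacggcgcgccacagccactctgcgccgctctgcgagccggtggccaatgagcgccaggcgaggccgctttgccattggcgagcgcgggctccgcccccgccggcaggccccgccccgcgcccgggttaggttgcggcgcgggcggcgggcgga
KLF4, chr9:107489770-107490019, minus strand: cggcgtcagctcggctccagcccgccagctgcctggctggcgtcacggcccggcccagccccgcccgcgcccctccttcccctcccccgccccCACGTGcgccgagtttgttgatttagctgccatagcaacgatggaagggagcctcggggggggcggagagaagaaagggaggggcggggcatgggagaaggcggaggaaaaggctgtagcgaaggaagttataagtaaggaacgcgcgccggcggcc
The first base of the match lay 245 bases before the start in SLC29A1, 206 in SLC38A5, 199 in SRM and 157 in KLF4. SRM, which encodes spermidine synthase, was at 153, 195, 45.9 and 75.3 CPM and 2.59-fold lower (2.42 to 2.78). KLF4, a transcription factor of monocytic differentiation, was at 12.1, 14.3, 39.3 and 34.8 CPM and 2.44-fold higher (2.08 to 2.87), so the same letters stood before genes that differed in opposite directions.

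Of the 48 gene lists, ribosome biogenesis held the most genes called lower. Of 60 ribosome biogenesis genes, 59 were measured: 20 were called lower and 0 higher, against 3.67% and 5.05% over all genes, and all 59 had log2 ratios below 0, with a median of -0.87. MYBBP1A, a nucleolar MYB-binding protein, was at 239, 207, 48.4 and 72.2 CPM and 2.86-fold lower (2.67 to 3.06). TCOF1, the treacle protein of ribosomal DNA transcription, was at 159, 133, 35.5 and 52.8 CPM and 2.52-fold lower (2.32 to 2.74). NOLC1, a nucleolar chaperone of small nucleolar ribonucleoproteins, was at 542, 531, 142 and 227 CPM and 2.34-fold lower (2.25 to 2.44), and RRS1, a 60S assembly factor, 2.57-fold. The other 16 calls were BOP1, LYAR, WDR3, MRTO4, TSR1, IMP4, WDR43, NOP14, DDX21, NOP16, RRP1B, BRIX1, NOP58, EBNA1BP2, PPAN and RRP9, among which DDX21, an RNA helicase of the nucleolus, was at 1013, 1052, 312 and 525 CPM and BOP1, of the 60S assembly complex with PES1, at 273, 234, 74.3 and 98.3 CPM. The mildest ratio of the list was -0.19 for NOP10, a small protein of box H/ACA particles. In MYBBP1A, TCOF1 and NOLC1 both libraries without the c-Myc hairpin were high, the double knockdown was low, and the c-Myc hairpin alone was lowest. The median log2 ratio of the list in the control background was -1.37, with 43 called lower.

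Other parts of the translation machinery were lower by less. Over all measured genes 3.67% were called lower. RNA polymerases I and III, which make ribosomal and transfer RNA, had 3 of 36 subunits called lower (POLR3G, POLR3K and CD3EAP) and a median of -0.34. POLR3G was at 42.7, 39.2, 6.61 and 11.6 CPM and 3.38-fold lower (2.86 to 4.03). CD3EAP, a polymerase I subunit, was 3.42-fold lower, but shares a large part of its exons with a neighbouring gene and the strand setting of the counting is not given. Of 37 aminoacyl-tRNA synthetases and partners, which load amino acids onto tRNAs, 3 were called lower (FARSA, FARSB and MARS2) and 33 had ratios below 0 (median -0.48). FARSA and FARSB, the subunits of phenylalanyl-tRNA synthetase, were 2.26 and 2.17-fold lower. Translation factors had 3 of 43 called lower, EIF4EBP1, EIF3C and EEF1E1 (median -0.32). EIF4EBP1, which holds back the cap-binding factor eIF4E, was at 208, 112, 39.4 and 36.5 CPM and 3.06-fold lower (2.78 to 3.37), with the control hairpin highest. EIF3C was 2.34-fold lower, but its reads may be split with the near-identical EIF3CL. None of 79 cytosolic ribosomal protein genes was called, 74 had ratios below 0 (median -0.28), and together they took 7.16% of counts with the Bcl-2 hairpin and 6.18% with both. Small nucleolar RNA host genes had 2 of 21 called lower, DANCR at 82.3, 88.1, 28.5 and 30.6 CPM (2.87-fold, 2.59 to 3.20) and SNHG4, and 1 higher, TMEM107.

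**Figure D3:**
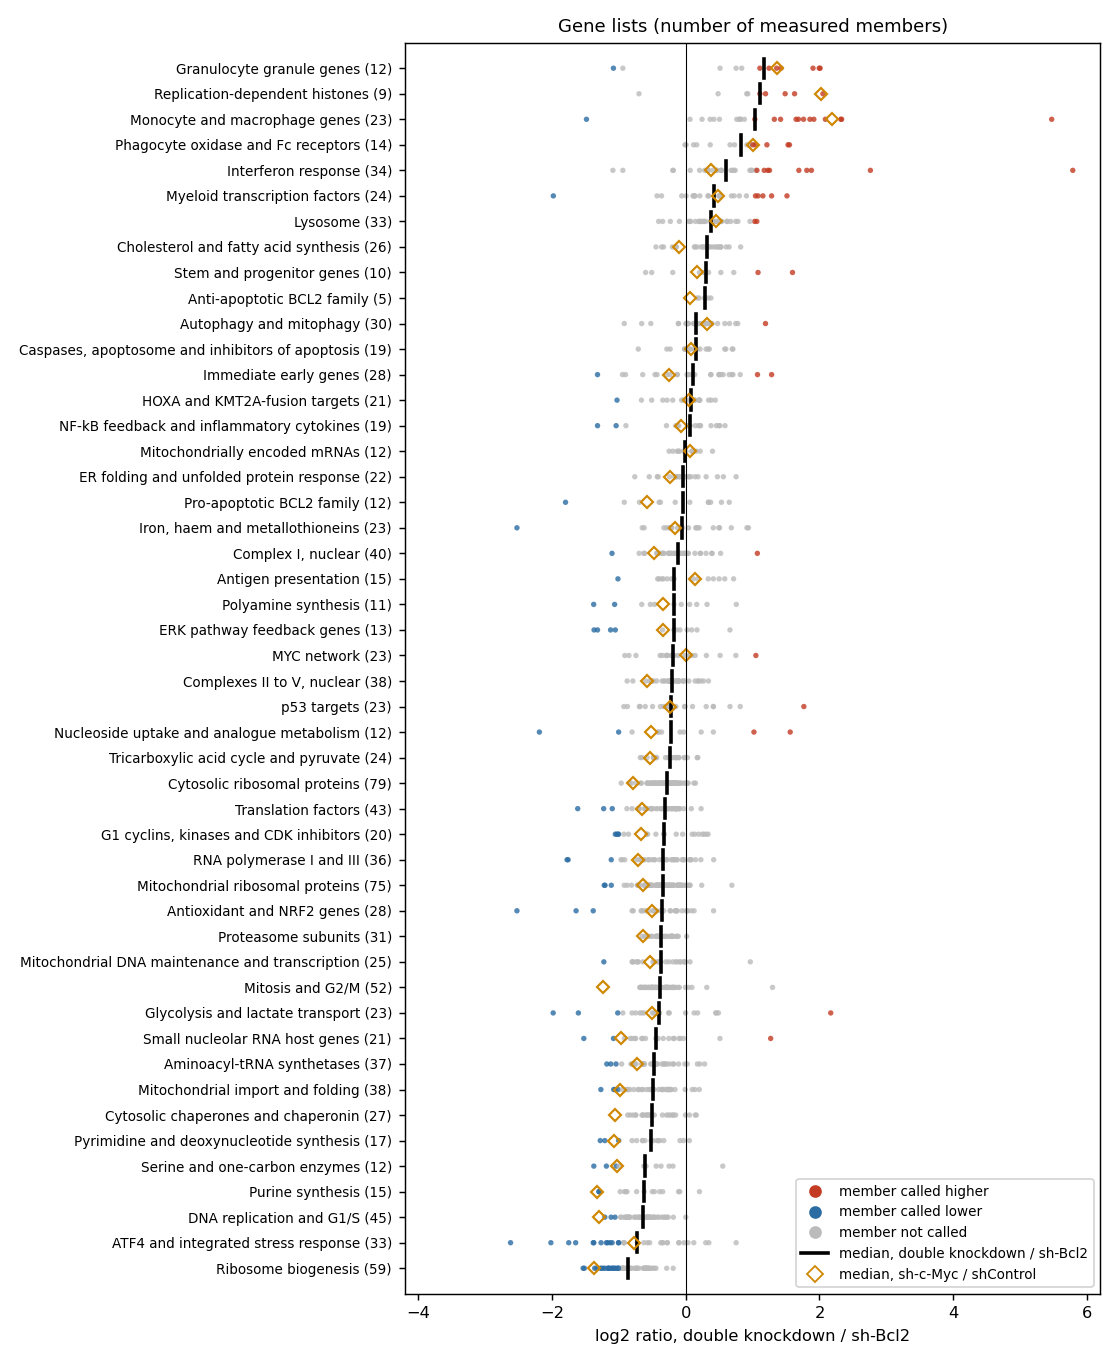
Log2 ratios of the double knockdown to Bcl-2 knockdown for the measured members of each gene list, with 1 point per gene, members called higher or lower in colour and the list's median marked. Ribosome biogenesis lies wholly below 0 (median -0.87), and the granule, monocyte and histone lists have the highest medians. SPRY1, at a log2 ratio of -5.77, lies beyond the axis and is not shown.

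Nucleotide synthesis enzymes were mostly lower, with few past 2-fold, while 3.67% of all genes were called lower. All but 1 of 15 purine enzymes had ratios below 0 (median -0.62), and 2 were called, PAICS and PFAS, both of the de novo pathway. PAICS was at 443, 452, 90.6 and 184 CPM and 2.46-fold lower (2.36 to 2.57), and PFAS at 157, 146, 34.9 and 59.4 CPM and 2.45-fold lower (2.27 to 2.65). The c-Myc hairpin alone gave the lowest level of both. Of 17 pyrimidine and deoxynucleotide enzymes, 3 were called lower (median -0.52): NME1 and NME2, neighbouring nucleoside diphosphate kinases whose reads may be shared, and RRM2. RRM2, the regulated subunit of ribonucleotide reductase, was at 102, 148, 25.1 and 74.0 CPM and 2.003-fold lower (1.87 to 2.15). Polyamine synthesis had 2 of 11 members called lower, SRM and ODC1, the latter the first enzyme of the pathway, at 149.6, 179, 27.8 and 85.7 CPM and 2.09-fold lower (1.96 to 2.23).

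Genes induced by the factor ATF4 during amino acid shortage and other stresses held the second most genes called lower among the lists, after ribosome biogenesis. Of 33 measured, 13 were called lower and 0 higher (median -0.72), against 3.67% and 5.05% of all genes. The 13 were STC2, SLC38A1, PSAT1, CHAC1, ALDH1L2, SLC7A1, PHGDH, ADM2, SLC7A5, PYCR1, JDP2, CBS and ASNS. PHGDH and PSAT1 make serine from a glycolytic intermediate. PHGDH was at 295, 191, 110.4 and 83.9 CPM (2.28-fold lower, 2.13 to 2.43) and PSAT1 at 351, 238, 119.9 and 91.7 CPM (2.59-fold lower, 2.44 to 2.76). Both were highest with the control hairpin, intermediate with the Bcl-2 hairpin and lowest in the double knockdown. CHAC1, which degrades glutathione, was at 14.3, 6.74, 15.1 and 1.98 CPM, 3.36-fold lower with both hairpins than with the Bcl-2 hairpin (2.25 to 5.26), while the c-Myc hairpin in the control background gave a log2 ratio of 0.08. ASNS, asparagine synthetase, was at 4.54, 1.72, 3.27 and 0.640 CPM and 2.61-fold lower (1.25 to 6.24), and CBS, which condenses serine with homocysteine, at 10.4, 6.34, 6.93 and 2.94 CPM and 2.14-fold lower (1.50 to 3.13). SLC7A5, the light chain of the leucine transporter LAT1, was at 564, 167, 237 and 76.2 CPM, low with either hairpin and lowest with both. DDIT3, which encodes the stress factor CHOP, lay at the other end of the list with a log2 ratio of 0.75 and was not called. In the control background 8 list members were called lower (median -0.77), against 9.88% of all genes. The list for serine and one-carbon enzymes, which overlaps it, had 3 of 12 called lower (PSAT1, PHGDH and MTHFD1, a folate enzyme at 2.05-fold) and a median of -0.60.

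Of 45 DNA replication genes measured, 44 had ratios below 0 (median -0.64), while 3 were called lower (against 3.67% of all genes): UHRF1, MCM10 and POLE2. UHRF1, which directs DNA methylation to new strands, was at 463, 417, 88.4 and 180.3 CPM and 2.31-fold lower (2.21 to 2.42). MCM10, a replication initiation factor, was at 121, 116, 27.7 and 53.5 CPM and 2.17-fold lower (1.995 to 2.36). Of 20 G1 cyclins, kinases and inhibitors, 4 were called lower: CCND1, CCNE1, CDC25A and E2F2, each at 2.01 to 2.07-fold. CDC25A, the phosphatase that activates CDK2, was at 72.1, 63.8, 16.9 and 31.7 CPM (1.81 to 2.25 for the fold). None of 52 mitosis genes was called in either direction (median -0.39). MKI67 was at 858 CPM with the Bcl-2 hairpin and 599.7 with both, and TOP2A was at 633, 645, 327 and 597 CPM, with the c-Myc hairpin alone lowest in both. In the control background 36 of these mitosis genes were called lower (median -1.23), against 9.88% of all genes, and the log2 ratio was at least 1 higher in the Bcl-2 knockdown background for 17 of them, against 3.02% of all genes.

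Among mitochondrial genes, import and folding factors had 4 of 38 called lower (median -0.49): TRAP1, TOMM34, TOMM40 and HSPD1. TRAP1, the mitochondrial HSP90, was at 129, 111, 30.7 and 46.1 CPM and 2.41-fold lower (2.21 to 2.63), with some exons shared with another gene. HSPD1, the chaperonin HSP60, was at 1156, 1039, 317 and 516 CPM and 2.01-fold lower (1.96 to 2.07). Mitochondrial ribosomal proteins had 3 of 75 called lower (MRPS26, MRPS2 and MRPL12; median -0.34), of which MRPL12 shares most of its exons with another gene. DNA maintenance and transcription had 1 of 25, TWNK, the mitochondrial DNA helicase, at 116, 110.5, 29.2 and 47.3 CPM (2.34-fold, 2.14 to 2.55). The counts for ribosomal proteins and for DNA maintenance were near the 3.67% called lower over all genes. Of 38 nuclear genes of complexes II to V in the respiratory chain, 0 were called (median -0.21). In complex I, 1 of 40 was called lower, the assembly factor NDUFAF2, and 1 higher, NDUFA2 (median -0.12). The 12 mRNAs made inside mitochondria had a median of -0.01 and no call. MT-CO1, a core subunit of cytochrome oxidase, was at 13697, 16775, 16868 and 16432 CPM, nearly level in the libraries with a knockdown. The citric acid cycle had 0 of 24 called (median -0.24).

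Glycolysis and lactate transport had 3 of 23 called lower (ENO2, SLC16A1 and LDHA) and 1 higher, HK3, the hexokinase of myeloid cells. Over all genes 3.67% were called lower and 5.05% higher. LDHA was at 1004, 993, 297 and 491 CPM and 2.02-fold lower (1.97 to 2.08), and SLC16A1, the lactate carrier MCT1, at 137, 128, 24.1 and 42.0 CPM and 3.04-fold lower (2.78 to 3.33). Cytosolic chaperones had no call among 27 (median -0.51). HSP90AB1 was at 3836, 3562, 1338 and 1998 CPM, 1.78-fold lower (1.76 to 1.81) and so short of the 2-fold limit, and HSPA8 at 2334, 2343, 795 and 1650.4 CPM. Proteasome subunits had no call among 31 and 30 ratios below 0 (median -0.37). Endoplasmic reticulum folding genes had no call among 22 and a median of -0.04, with CALR at 1.70-fold lower. Antioxidant genes had 3 of 28 called lower: HMOX1, NQO1, a quinone reductase at 58.1, 44.9, 13.4 and 17.2 CPM (2.61-fold, 2.26 to 3.02), and GSTP1, a glutathione transferase at 38.9, 25.8, 4.55 and 8.25 CPM (3.11-fold, 2.55 to 3.84). In the iron and haem list HMOX1 was the 1 call among 23 (median -0.05).

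Genes of the granules made during granulocyte development were among those called higher. Primary granule proteins such as MPO are known to be transcribed mainly at the promyelocyte stage, before cells mature. Of 12 measured genes of neutrophil granules, 7 were called higher (5.05% of all genes were) and 1 lower, CST7, with a median of 1.18. MPO (chr17:58269856-58280935), the myeloperoxidase of primary granules, was at 131, 164, 652 and 660.2 CPM and 4.03-fold higher (3.85 to 4.21). ELANE (chr19:851014-856247), neutrophil elastase, was at 350.2, 336, 887 and 1255 CPM and 3.74-fold higher (3.63 to 3.86). PRTN3, proteinase 3, was at 72.6, 56.2, 197 and 224 CPM and 3.99-fold higher (3.70 to 4.31). For these 3 enzymes both libraries with the c-Myc hairpin were high and both without it low. The double knockdown held the highest level of ELANE and PRTN3. For MPO the libraries with the c-Myc hairpin could not be ranked. Their counting intervals overlapped, at 640 to 665 CPM for the c-Myc hairpin alone and 648 to 673 CPM for both hairpins. In the deposited FPKM values (fragments per kilobase, scaled to library size) their order was reversed, at 199.98 and 188.92. AZU1, azurocidin, was at 1387, 812, 2523 and 2179 CPM and 2.68-fold higher (2.63 to 2.74), and was lowest with the Bcl-2 hairpin alone. BPI, which kills Gram-negative bacteria, was at 21.5, 36.1, 72.1 and 92.8 CPM, SERPINB1, an inhibitor of granule proteases, at 148, 159, 350.4 and 343 CPM and RNASE3, an eosinophil ribonuclease, at 10.6, 11.2, 42.5 and 26.7 CPM. In this bulk RNA, more cells of a type that makes these mRNAs and more of these mRNAs per cell cannot be told apart.

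Monocyte and macrophage genes had 12 of 23 called higher and 1 lower, FCGR2B (median 1.03), against 5.05% and 3.67% of all genes. CSF1R (chr5:150053291-150113372), the receptor for the monocyte growth factor CSF1, was at 19.0, 35.7, 179 and 152 CPM and 4.25-fold higher (3.87 to 4.68). LYZ, lysozyme, was at 36.1, 91.8, 239.6 and 347 CPM and 3.77-fold higher (3.56 to 4.01), with part of its exons overlapping another gene. The Bcl-2 hairpin alone was already above the control hairpin for both, the c-Myc hairpin was far above it, and LYZ was highest in the double knockdown while CSF1R was highest with the c-Myc hairpin alone. MS4A6A, which was named by size and is not in the list, was 3.64-fold higher (3.29 to 4.05). SIGLEC1, a sialic acid receptor of macrophages, had 2 counts with the Bcl-2 hairpin and 114 with both, a ratio of 44.4 (14.9 to 461). The other list members called higher were FGL2, S100A9, PTAFR, MPEG1, CD36, S100A8, MARCO, ITGAM and ADGRE1. S100A8 and S100A9, the subunits of calprotectin, were at 4.68, 12.4, 39.7 and 33.1 and at 7.45, 13.0, 48.9 and 47.2 CPM, CD36, a scavenger receptor, at 34.1, 65.3, 189.7 and 164 CPM and ITGAM, the integrin chain CD11b, at 78.1, 94.2, 235 and 193 CPM. In the control background 16 of the list were called higher (10.6% of all genes were) with a median of 2.19. For 10 members the log2 ratio was at least 1 lower in the Bcl-2 knockdown background, against 5.01% of all genes. For 2 members it was at least 1 higher, against 3.02%. Phagocyte oxidase and Fc receptor genes had 5 of 14 called higher (median 0.82), among them FCGRT, the neonatal Fc receptor, at 2.89-fold, and FCER2, the low-affinity IgE receptor CD23, at 2.93-fold.

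The other genes called higher that were named by size included surface and signalling proteins. GPA33, a glycoprotein best known from intestinal epithelium, was at 2.56, 2.91, 20.6 and 17.0 CPM and 5.78-fold higher (4.23 to 8.22). FGL2, a membrane-bound fibrinogen-like protein, was at 1.28, 3.37, 14.1 and 17.1 CPM and 5.03-fold higher (3.75 to 6.98). HHLA2, a B7-family ligand, was 4.65-fold higher, HK3 4.49-fold, MUC1 4.43-fold, FGD2, an exchange factor for CDC42, 4.17-fold and the myosin gene MYO15B 3.78-fold. All were also at least 2-fold higher with the c-Myc hairpin in the control background. The non-coding transcripts AC096667.1 and TSPEAR-AS2 were 4.90 and 4.74-fold higher.

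Transcription factors of the myeloid lineage were mixed. Of 24 measured, 5 were called higher and 1 lower (median 0.42), against 5.05% and 3.67% of all genes. KLF4, CEBPE, TFEC, ID1 and GATA2 were higher: CEBPE, which governs secondary granules, was at 1.14, 1.26, 3.85 and 3.65 CPM (2.86-fold, 1.70 to 5.17) and TFEC at 51.5, 53.6, 122 and 119 CPM (2.22-fold, 2.05 to 2.42). BATF3 was lower, at 23.4, 14.5, 6.35 and 3.65 CPM and 3.94-fold (2.95 to 5.41). Stem and progenitor genes had 2 of 10 called higher, KIT at 1.77, 2.11, 9.49 and 6.46 CPM and GATA2 at 2.27, 0.859, 1.41 and 1.86 CPM, and none lower. HOXA genes and other targets of KMT2A fusions had a median of 0.08 over 21 genes, with HOXA6 alone called lower, at 2.04-fold (1.14 to 3.86) and with part of its exons shared. Lysosomal genes had 2 of 33 called higher, GAA and CTSK, which is near the 5.05% over all genes. Of the 33, 29 had ratios above 0 (median 0.38).

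**Figure D4:**
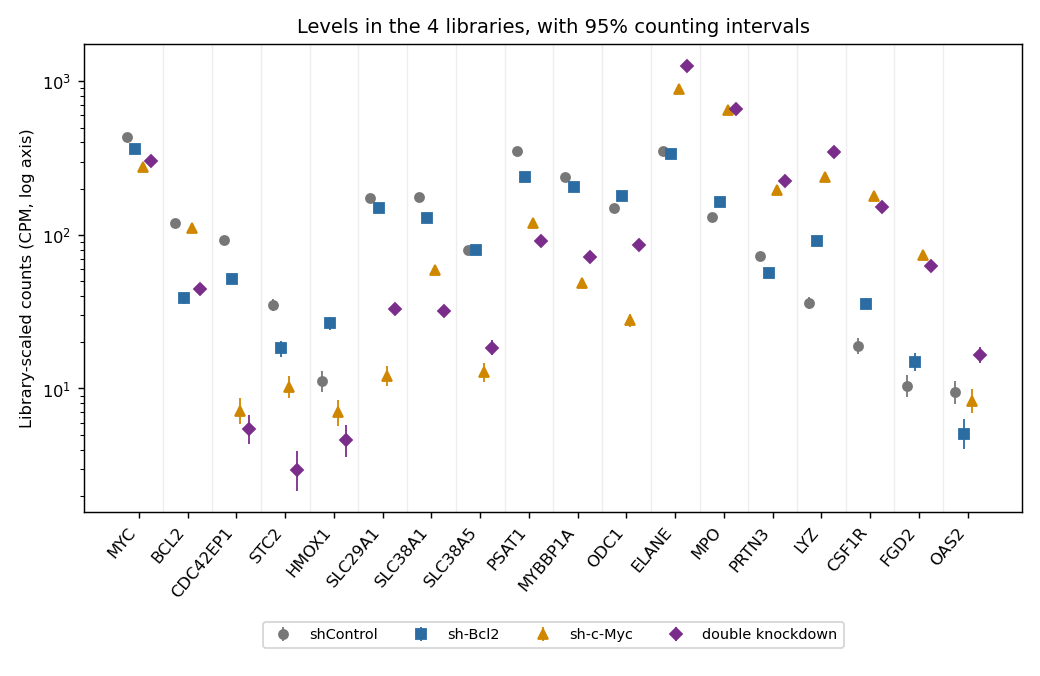
Levels of selected genes in the 4 libraries (CPM, log axis), 1 point per library, with exact 95% intervals for counting error. MYC spans 278 to 434 CPM over the libraries, CDC42EP1 and SLC29A1 are low in both libraries with the c-Myc hairpin, MPO and CSF1R are high in both, and OAS2 is highest in the double knockdown.

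Interferon response genes were more often higher than lower with both hairpins. Of 34 measured, 9 were called higher and none lower, against 5.05% and 3.67% of all genes. Of the 34, 30 had ratios above 0, and the median was 0.60. In the control background 7 were called higher (10.6% of all genes were) and 1 lower, with a median of 0.37. OAS2, a sensor of double-stranded RNA, was at 9.51, 5.09, 8.34 and 16.5 CPM, lowest with the Bcl-2 hairpin and highest with both, 3.23-fold higher (2.51 to 4.24). Its paralogue OAS1 was at 5.54, 3.37, 9.94 and 11.9 CPM and 3.51-fold higher (2.58 to 4.91). OASL was at 0.639, 0.198, 0.449 and 1.54 CPM and 6.78-fold higher (2.35 to 40.2), on few counts. IFI44L had 0 counts with the Bcl-2 hairpin and 28 with both, which is at least 9.04-fold higher against 3 counts. The exact interval, which also covers the counting error of the library with both hairpins, starts lower, at 6.88-fold. STAT2 was at 70.7, 56.1, 164 and 127 CPM, IRF9, its partner in the complex that binds interferon-stimulated genes, at 0.781, 0.462, 3.78 and 1.79 CPM and IRF7, which amplifies type I interferon, at 17.0, 16.6, 39.4 and 34.9 CPM. IFIT2 and IFI6 were called as well. Of the compared libraries, only that with both hairpins held at least 1 CPM of IFI44L, OASL and IRF9. They were thus measured only through the library where they were higher, which adds to the 9 calls and the 30 ratios above 0. The 9 called genes were chosen for being higher than with the Bcl-2 hairpin alone, so their low level there is no separate result: over the whole list the summed level was 955 CPM with the control hairpin and 956 CPM with the Bcl-2 hairpin. Antigen presentation genes had 1 call among 15, TAP2, at 2.02-fold lower and with part of its exons shared with another gene.

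Feedback genes of the ERK pathway had 5 of 13 called lower and none higher (median -0.18), against 3.67% of all genes called lower. SPRY4, which restrains ERK signalling, was at 21.01, 17.2, 7.25 and 7.87 CPM and 2.18-fold lower (1.75 to 2.73), and ETV4, a factor of the ETS family, 2.58-fold (2.01 to 3.37). SPRY1 had 26 counts with the Bcl-2 hairpin and 0 with both, which is at least 8.95-fold lower against 3 counts, while the exact interval starts at 6.77-fold. Immediate early genes had 2 of 28 called higher, KLF4 and FOSL2, an AP-1 factor at 201, 218, 584 and 459 CPM, and 1 lower, IER3, against 8.72% of all genes called in either direction. IER3 shares part of its exons with another gene. Inflammatory genes under NF-kB had 2 of 19 called lower, TNF at 10.1, 38.1, 3.08 and 18.5 CPM (2.06-fold, 1.78 to 2.38) and IER3. TNF was highest with the Bcl-2 hairpin alone, and both knockdowns of c-Myc were below their own backgrounds.

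Of 5 anti-apoptotic BCL2 family genes, none was called and all had ratios above 0 (median 0.28). For this and the lists that follow, 8.72% of all genes were called, 5.05% higher and 3.67% lower. MCL1 was at 357, 357, 374 and 463 CPM and 1.30-fold higher (1.25 to 1.35), with the double knockdown above the other libraries. Among 12 pro-apoptotic members HRK was the 1 call, lower, on few counts. Caspases, the apoptosome and inhibitors of apoptosis had no call among 19 (median 0.15), and APAF1, the scaffold of the apoptosome, was 1.63-fold higher. Of 23 p53 targets 1 was called, TP53INP1, higher at 9.37, 6.54, 27.5 and 22.3 CPM (3.40-fold, 2.72 to 4.31). Autophagy genes had 1 call among 30, WIPI1, a phosphoinositide-binding protein of the autophagosome, higher at 2.29-fold and with part of its exons shared. Cholesterol and fatty acid synthesis had no call among 26 (median 0.31), with FASN 1.36-fold lower and SCD 1.09-fold higher. Partners and rivals of MYC had 1 call among 23, the kinase gene PIM1, higher at 28.2, 42.7, 73.1 and 88.5 CPM (2.07-fold, 1.88 to 2.28; list median -0.18). Of 29 replication-dependent histone genes, whose mRNAs mostly lack poly(A) tails, 9 were measured and 5 of these were called higher (median 1.11). All were at low levels, such as HIST1H2AC at 2.48, 2.44, 11.5 and 6.91 CPM. HIST1H4H and HIST2H2BE, at 0.661 and 0.793 CPM with the Bcl-2 hairpin, were measured only through the double knockdown (2.11 and 3.39 CPM). Over all genes 15.6% were called higher at 1 to 3 CPM and 9.87% at 3 to 10 CPM.

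The c-Myc hairpin gave fewer calls on the Bcl-2 knockdown background than on the control background. Over the same 12972 genes it gave 2654 calls (20.5%) in the control background, 1373 higher (10.6%) and 1281 lower (9.88%). The ratios in the 2 backgrounds share no library. Over the 10662 genes that averaged at least 50 counts, the standard deviation of the log2 ratio was 0.50 on the Bcl-2 knockdown background and 0.76 on the control background, and the ratios correlated across genes with Pearson's r of 0.80 and Spearman's rho of 0.78. Genes are not independent replicates, and this is a description of 4 libraries. The ratio of MYC mRNA itself was nearer to 0 on the Bcl-2 knockdown background (log2 -0.27 against -0.64), and its part in the smaller ratios was not tested.

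Most calls had the same sign in both backgrounds. Of the 655 genes called higher, 615 had a ratio above 0 in the control background and 431 were called higher there (65.8% of these 655 and 31.4% of the 1373), while 3 were called lower. Of the 476 called lower, 414 had a ratio below 0 in the control background and 290 were called lower there (60.9% of the 476 and 22.6% of the 1281), while 6 were called higher. The genes called lower in the control background had a median log2 ratio of -1.34 there and -0.70 with both hairpins against the Bcl-2 hairpin, and those called higher had 1.49 and 0.73. These medians are pulled apart by the choice of genes on the first ratio. Of the 48 gene lists, 30 had medians below 0 in both backgrounds and all 30 lay nearer to 0 on the Bcl-2 knockdown background. For 12 lists both medians were above 0, and 7 of them lay nearer to 0; the other 5 were the interferon, anti-apoptotic, caspase, stem cell and HOXA lists. The 6 remaining lists had medians of opposite sign: the MYC network, mitochondrially encoded mRNAs, antigen presentation, NF-kB, immediate early genes and cholesterol synthesis.

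**Figure D5:**
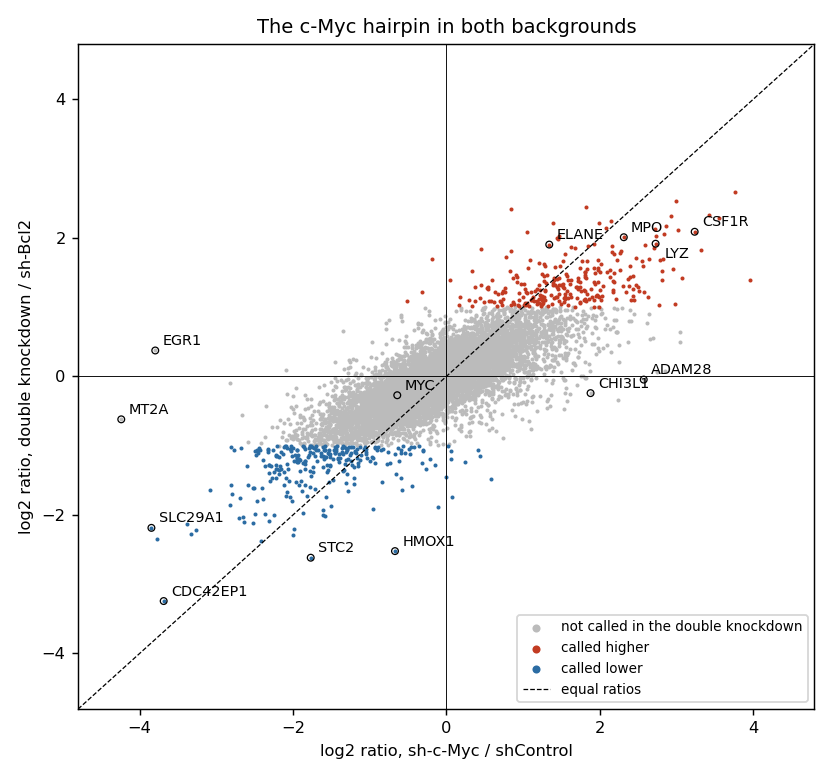
Log2 ratio for the c-Myc hairpin on the Bcl-2 knockdown background against its log2 ratio on the control background, 1 point per gene that averaged at least 50 counts, with the dashed line at equal ratios. Most points lie along a line flatter than the dashed one (r = 0.80), and EGR1 and CHI3L1 lie far from it. Genes beyond the axes, such as SIGLEC1 (5.47 on the Bcl-2 knockdown and 5.82 on the control background), are not shown.

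The difference between the 2 log2 ratios was at least 1, with an interval that excluded 0, for 1042 genes (8.03%): 392 (3.02%) had the higher ratio on the Bcl-2 knockdown background and 650 (5.01%) the lower. This split depends on the scaling, since scaling by total counts gave 269 and 846, and it turned with at least 5 CPM (215 and 203) and at a 1.5-fold limit (1337 and 1128). EGR1, an immediate early transcription factor, differed most by the interval's near end among genes with at least 10 CPM. It was at 46.8, 65.2, 3.34 and 84.5 CPM, low in the c-Myc knockdown library alone, with a log2 ratio of 0.37 on the Bcl-2 knockdown background and -3.80 on the control background. MT2A, a metallothionein, was at 15.1, 6.41, 0.770 and 4.16 CPM (log2 ratios -0.62 and -4.24), again lowest with the c-Myc hairpin alone. MEX3A, an RNA-binding protein, NUDT1, which clears oxidised nucleotides, and HIRIP3 were also higher by this measure, with differences of 2.10, 1.80 and 1.82. In these 3 genes the Bcl-2 hairpin library was already low, such as NUDT1 at 45.9, 15.3, 11.7 and 13.6 CPM. HIRIP3 shares part of its exons with another gene.

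Of the 650 genes with the lower ratio, 465 had been called higher in the control background, and of the 392 with the higher ratio, 260 had been called lower there. Over all genes 10.6% were called higher there and 9.88% lower. The difference subtracts the control-background ratio, so this overlap is partly built in and is no separate result. CHI3L1, a secreted chitinase-like protein of macrophages, was at 184, 447, 679 and 378 CPM. The log2 ratio was -0.24 on the Bcl-2 knockdown background and 1.88 on the control background, and the c-Myc hairpin library held the highest level. ADAM28, a membrane protease of leukocytes, was at 3.41, 7.66, 20.5 and 7.42 CPM, LINC01268 at 7.03, 15.8, 36.4 and 22.3 CPM and the antisense transcript IL12A-AS1 at 18.7, 21.5, 60.9 and 19.6 CPM. All were highest with the c-Myc hairpin alone, as was MYBPH, a myosin-binding protein, at 21.8, 60.8, 104 and 83.6 CPM. TRAC, the constant region of the T-cell receptor alpha chain, was at 5.39, 18.6, 5.00 and 4.99 CPM, high with the Bcl-2 hairpin alone and 3.70-fold lower with both (2.89 to 4.84).

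A call at 2-fold together with a difference of at least 2-fold beyond the ratio in the control background was found for 68 genes higher and 83 lower. With at least 10 CPM in either library these were OAS2 and DYNC2LI1, a subunit of a ciliary dynein, among the higher, and HMOX1, TRAC, SEMG1 and JDP2 among the lower. DYNC2LI1, SEMG1 and JDP2 are named here after their values were seen. DYNC2LI1 was at 9.30, 6.08, 7.44 and 14.1 CPM, with the double knockdown above the other libraries. SEMG1, known as a protein of semen, was at 5.04, 12.5, 5.26 and 5.44 CPM, high with the Bcl-2 hairpin alone. JDP2, a repressor of AP-1, was at 24.6, 15.9, 25.1 and 7.93 CPM and lowest in the double knockdown. At the edge of the 1 CPM rule, WDR54 and PKD2L2 lay just inside at 1.02 CPM and ZMYND10 and ARSF just outside at 0.991 CPM.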

How the data were processed

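The authors deposited read counts and FPKM values (fragments per kilobase, scaled to library size) per gene for 4 libraries. Per the submitters' processing notes, reads were aligned by HISAT2 to GRCh38 and counted by HTSeq 0.13.5. The HISAT2 version, annotation release and strand setting are not given in those notes or in other sources used here. Selection used puromycin at 0.5 µg/ml or G418 at 600 µg/ml, per the labels, which give 72 h of doxycycline before Western blotting and an input of 1.5 µg RNA per library (NEBNext Ultra kit). All 24940 gene identifiers are in GENCODE 29, which gave gene types and overlaps.

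From the deposited counts, CPM and log2 ratios (prior count 0.5) were computed with TMM factors over the 4 libraries (edgeR 4.0.16: 0.950, 0.965, 1.08 and 1.01). Calls needed a fold of 2, a 95% exact binomial interval without 1 (scipy 1.17.1) and 1 CPM in either library. With 1 library per group no test was made, and intervals leave out the spread between cultures and treat reads as independent molecules. The difference between backgrounds has a delta-method interval. The deposited FPKM values entered as an alternative only. The steps were tested on simulated counts. Named genes were MYC, BCL2, the 15 per direction with at least 10 CPM whose interval end nearest to 1 was farthest from it, up to 4 called members per list by the same measure (the 2 most abundant where none was called) and 5 differences between backgrounds per direction. Other called list members were named after their values were seen. The members and the 48 gene lists were chosen with earlier results of these data known. A few genes that met these rules are not reported here. The printed promoters were restricted to matches before the start, and none was taken from chromosome 8.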

Additional observations from a re-analysis of the deposited data

Results flagged for a closer look

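For 10 of the 167 genes looked at, the c-Myc hairpin gave ratios of opposite direction on the Bcl-2 knockdown and control backgrounds, with both intervals excluding equal levels and a difference of at least 2-fold. The 167 were the named genes and the genes already called in opposite directions. Hence 8 of the 10 were included because they met this condition, and 10 of 167 is not a rate. The difference itself was not tested, since each group had 1 library. Differences below are the log2 ratio on the Bcl-2 knockdown background minus that on the control background. EGR1 had a difference of 4.17 (0.37 against -3.80) and CHI3L1 one of -2.12 (-0.24 against 1.88), and both were well counted. The other 8 were called in opposite directions, and none was above 4.22 CPM in any library. The difference was -6.17 for CALML4, -3.18 for C2orf88, -3.02 for AL928970.1, -2.77 for AC002553.1 and -2.56 for AC025171.5. It was 3.92 for STOX1, 2.32 for ZDHHC23, a palmitoyltransferase, and 2.57 for AC116914.2. CALML4 shares 93.7% of its exonic bases with other genes.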

How the results depend on the processing

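No paired analysis was possible because each group had 1 library, and for the same reason no library could be left out. The counts of 655 genes higher and 476 lower became 261 and 267 with at least 5 CPM, 266 and 271 where genes averaged at least 50 counts, 1401 and 1425 at 1.5-fold, and 225 and 151 on the log2(FPKM + 1) scale, so that genes called lower outnumbered those called higher in the first 3 of these. The 392 genes with a 2-fold higher and 650 with a 2-fold lower ratio on the Bcl-2 knockdown background became 215 and 203, 235 and 256, 1337 and 1128, and 155 and 487 in the same order, 322 and 335 among protein-coding genes, and 511 and 998 without a filter on low counts. This split also turned with at least 5 CPM and at 1.5-fold. The MYC log2 ratio of -0.27 was -0.21 under scaling by total counts and on the log2(FPKM + 1) scale. Other scalings, no filter, a prior count of 2 and protein-coding genes alone kept both counts of calls within 1.5 times. Scaling by total counts raised the median of all genes by 0.06 here and 0.19 in the control background, and gave 772 higher and 389 lower. It split the differences between backgrounds 269 to 846, and upper quartile factors 252 to 865. Of 117 named genes called, 102 kept the call under total counts, 106 under upper quartile factors, 115 under median-of-ratios size factors and 68 on the log2(FPKM + 1) scale, and none changed sign. Calls close to 2-fold were the ones lost under total counts: CCND1, CCNE1, CDC25A, E2F2, HOXA6, HSPD1, LDHA, MARS2, MTHFD1, ODC1, POLE2, RRM2, TAP2, TNF and TOMM40. The medians of mitochondrially encoded mRNAs, endoplasmic reticulum folding, pro-apoptotic and iron genes, all within 0.05 of 0, turned positive under total counts, as did the ratios of ADAM28, ZMYND10, TNFRSF10B, HSP90B1 and MT-CO1, none of them called. On the log2(FPKM + 1) scale these medians and ratios turned positive too.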

Other observations

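Because 3 amino acid carriers stood among the genes with the largest falls, a list of 32 plasma membrane and lysosomal amino acid transporters was drawn up after those values were seen. Of 23 measured, 5 were called lower (SLC7A2, SLC38A5, SLC38A1, SLC7A1 and SLC7A5) and none higher, against 3.67% and 5.05% of all genes. SLC7A2, SLC38A5 and SLC38A1 are the 3 carriers that prompted the list, and SLC7A1 and SLC7A5 were already called in the ATF4 list. The count of 5 is therefore no separate result. The median log2 ratio was -0.28, against -0.24 in the control background. SLC7A1, the arginine and lysine carrier CAT1, was at 326, 302, 166 and 134 CPM (2.25-fold lower, 2.13 to 2.37). SLC7A11, the cystine-glutamate exchanger, was at 37.8, 42.5, 34.6 and 22.3 CPM, lowest in the double knockdown, at 1.91-fold lower (1.67 to 2.18). SLC1A5, the glutamine carrier ASCT2, was at 274, 217, 116 and 115 CPM, low in both libraries with the c-Myc hairpin. SLC38A2, another glutamine carrier, was at 407, 344, 504 and 437 CPM and 1.27-fold higher (1.23 to 1.32), so the members lay on both sides of 0.

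Called genes with 0 counts in either library were few. Besides IFI44L, NOTUM, a secreted enzyme that inactivates Wnt proteins, TENM3 and the pseudogene CXCR2P1 had 0 counts with the Bcl-2 hairpin and were at least 5.16, 5.81 and 8.39-fold higher with both, against 3 counts. Their exact intervals, which cover the error of both counts, start at 3.73, 4.26 and 6.35-fold. Besides SPRY1, the lincRNA AC027307.3 had 0 counts with both hairpins and was at least 6.54-fold lower against 3 counts, with an exact interval that starts at 4.82-fold. TENM3 and CXCR2P1 were also called higher with the c-Myc hairpin in the control background.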
